A study of Mus musculus with 12 samples.

Results

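The genes described here are 41 genes of the vascular endothelium, taken as a list of 7 classes from 18194 genes tested. Each gene was read from its brightest probe set, which is the one with the highest mean over all 12 arrays, and all 41 had a probe set of their own. Whole-lung RNA came from C57BL/6 mice on Affymetrix expression arrays, and 3 arrays were run for every group. There were 4 groups, namely FIZZ2 knockout lungs after bleomycin, FIZZ2 knockout lungs after saline, wild type lungs after bleomycin and wild type lungs after saline. All lungs were taken on day 21 after the injection into the trachea and were flushed with saline buffer before RNA isolation. Bleomycin, a drug that cuts DNA, damages lung tissue and leads to fibrosis in mice, and FIZZ2 is the secreted resistin-like protein encoded by Retnlb. The labels give neither age nor sex, and do not say how the knockout allele was made or that it was limited to a cell type. They do not state that the 3 arrays of a group are separate animals, so p-values measure only the spread between these samples.

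Endothelial cells line every blood vessel and differ along the vessel tree. Arterial cells carry connexins and vasomotor enzymes, venous cells store adhesion molecules that capture leukocytes, and alveolar capillaries hold a general type and a thin, wide type specialised for gas exchange. Vascular endothelial growth factor (VEGF), the angiopoietins and the bone morphogenetic proteins act on these cells through receptors, only some of which are largely restricted to them. Because RNA came from whole lung, fewer endothelial cells and less RNA per endothelial cell cannot be told apart.

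Retnlb, the targeted gene, was near the bottom of the array in every group, between the 11.1 and 22.2 percentiles of all genes. Its log2 signal was 3.67, 3.72 and 3.49 in knockout bleomycin lungs, 3.69, 3.54 and 3.83 in knockout saline lungs, 4.13, 3.80 and 3.98 in wild type bleomycin lungs, and 3.65, 3.84 and 3.57 in wild type saline lungs. After bleomycin the knockout minus wild type difference was -0.35 (adjusted p = 0.0502), and after saline it was 0.00 (adjusted p = 0.997), so its level gave no check of the genotype labels. The lung genes Sftpc, Scgb1a1 and Ager stood above the 99.9 percentile on every array, and Pecam1, the standard endothelial surface marker, stood between the 94.7 and 97.3 percentiles. Array medians lay between 5.58 and 5.68 on the log2 scale, on which 1 unit is a 2-fold difference.

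In wild type lungs after bleomycin, growth factor receptors such as Kdr and capillary markers such as Ednrb fell, while the P-selectin gene Selp and the arterial connexin gene Gja4 rose. Of the 41 genes, 16 fell and 4 rose at a Benjamini-Hochberg adjusted p under 0.05 in the limma fit over all genes, in which 27.7% of all genes were called, 14.4% lower and 13.3% higher. The median log2 change of the 41 genes was -0.28, against -0.04 over all genes tested. By class, 5 of 7 growth factor receptors, 4 of 7 surface and junction genes, 3 of 6 capillary genes, 3 of 7 angiogenic genes and 1 of 6 transcription factors fell. The genes that rose were 2 of 5 arterial and vasomotor genes, 1 of 3 venous and activation genes and 1 transcription factor. The class medians were -0.65 for receptors, -0.41 for angiogenic genes, -0.39 for capillary genes, -0.33 for surface and junction genes and -0.31 for transcription factors, but 0.30 for arterial and 0.11 for venous genes.

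**Figure D1:**
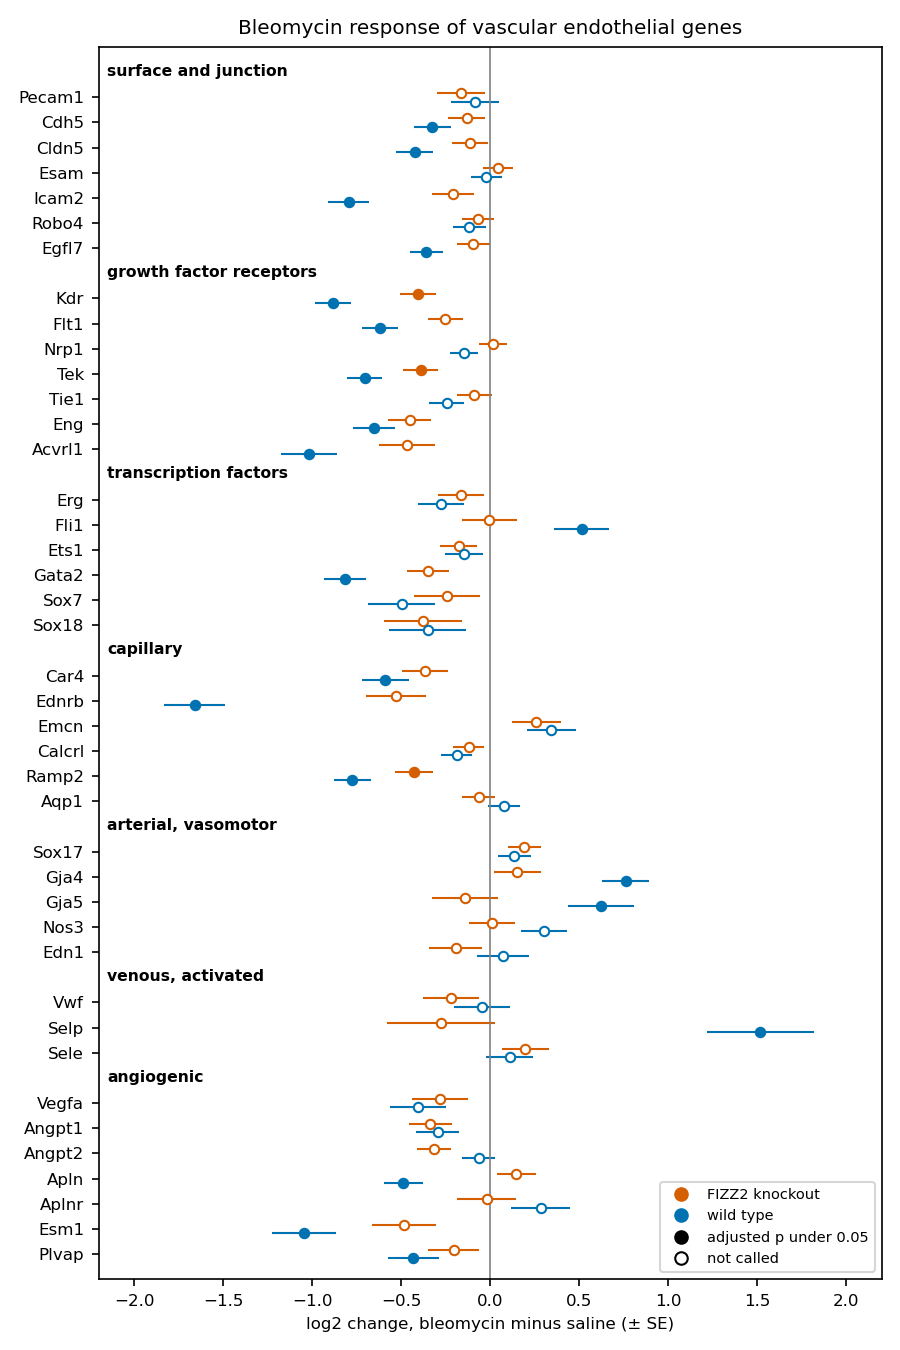
Log2 change after bleomycin (bleomycin minus saline) for each of the 41 genes, by class, in FIZZ2 knockout lungs (orange) and wild type lungs (blue), with the standard error of the limma fit (3 arrays per group). Filled points have an adjusted p under 0.05; most filled points are wild type and lie left of 0, with Ednrb at -1.66 farthest left and Selp at 1.52 farthest right.

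Among the capillary genes, Ednrb, an endothelin receptor that marks the gas-exchange capillary cell in mouse lung, had the largest fall of the 41. Its log2 signal was 7.99, 8.56 and 8.33 in wild type bleomycin lungs, against 9.89, 9.78 and 10.20 in wild type saline lungs. The change was -1.66 ± 0.17 (SE, n = 3 per group; adjusted p = 1.82e-05), a signal that fell by 68.4%, and no arrays overlapped. Ramp2, the partner of the adrenomedullin receptor, had 11.38, 11.26 and 11.37 in wild type bleomycin lungs, against 12.04, 12.08 and 12.22 in wild type saline lungs. Its change was -0.77 ± 0.10 (adjusted p = 0.000139), again without overlap. Car4, a carbonic anhydrase on the surface of capillary cells, had 9.92, 10.01 and 10.18 after bleomycin, against 10.58, 10.51 and 10.80 after saline (change -0.59, adjusted p = 0.00447), also without overlap. The other capillary genes did not pass. Calcrl, the receptor that Ramp2 accompanies, changed by -0.19 (adjusted p = 0.125), Emcn, a surface sialomucin, by 0.34 (adjusted p = 0.0847) and Aqp1, a water channel, by 0.08 (adjusted p = 0.576).

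Among the receptors, Kdr, the main signalling receptor of VEGF-A, had 10.31, 10.25 and 10.15 in wild type bleomycin lungs, against 11.15, 11.04 and 11.17 in wild type saline lungs. This was a change of -0.88 ± 0.10 (SE, n = 3 per group; adjusted p = 3.6e-05), a signal that fell by 45.7%. Acvrl1, a receptor through which bone morphogenetic proteins act on endothelium, had 9.28, 9.33 and 9.64 in wild type bleomycin lungs, against 10.29, 10.46 and 10.56 in wild type saline lungs (change -1.02, adjusted p = 0.000394). Both sets of arrays were apart. Tek, the receptor of the angiopoietins, had 10.56, 10.60 and 10.53 after bleomycin, against 11.17, 11.22 and 11.41 after saline (change -0.71, adjusted p = 0.000165). Flt1, a VEGF receptor that can act as a decoy, had 9.81, 9.64 and 9.45 after bleomycin, against 10.29, 10.26 and 10.20 after saline (change -0.62, adjusted p = 0.000527). Eng, the co-receptor of Acvrl1, fell by 0.65 on the log2 scale (adjusted p = 0.00127). In each of these genes every wild type bleomycin array was below every wild type saline array. Tie1, the partner of Tek, at -0.24 (adjusted p = 0.0857) and Nrp1, a VEGF co-receptor, at -0.15 (adjusted p = 0.176) did not pass.

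Of the 7 surface and junction genes, 4 fell and 3 did not pass. Icam2, an adhesion molecule of endothelial cells and platelets, had 10.37, 10.57 and 10.58 in wild type bleomycin lungs, against 11.13, 11.38 and 11.39 in wild type saline lungs, a change of -0.80 (adjusted p = 0.000247). Cldn5, the tight junction claudin of endothelium, had 11.62, 11.55 and 11.60 after bleomycin, against 11.93, 12.05 and 12.06 after saline (change -0.43, adjusted p = 0.0077). Both were lower on every bleomycin array. Egfl7, a protein that endothelial cells secrete, fell by 0.36 (adjusted p = 0.0115), and Cdh5, the cadherin of endothelial junctions, fell by 0.33 (adjusted p = 0.0313). Pecam1 had 10.72, 10.80 and 10.93 in wild type bleomycin lungs, against 10.87, 10.60 and 11.23 in wild type saline lungs. Its arrays overlapped, and the change of -0.08 had a 95% interval of -0.38 to 0.21 (adjusted p = 0.685). Esam, another junction molecule, changed by -0.02 with an interval of -0.21 to 0.16, and Robo4, a guidance receptor of endothelium, by -0.12 (adjusted p = 0.369).

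Of the transcription factors, Gata2, a zinc finger factor of endothelial and blood-forming cells, had 9.29, 9.43 and 9.18 in wild type bleomycin lungs, against 10.16, 10.31 and 9.88 in wild type saline lungs (change -0.82, adjusted p = 0.00021). Its arrays were apart. Fli1, an ETS factor that leukocytes and platelets also carry, had 8.60, 8.60 and 8.84 after bleomycin, against 8.21, 7.80 and 8.49 after saline, so that it rose by 0.51 (adjusted p = 0.0248). Erg, the ETS factor most restricted to endothelium, overlapped between the groups (7.89, 8.02 and 8.12 after bleomycin, against 8.33, 8.05 and 8.48 after saline) and had a change of -0.28 (adjusted p = 0.137). The SOX factors Sox7 (-0.50, adjusted p = 0.0647) and Sox18 (-0.35, adjusted p = 0.257), and Ets1 (-0.15, adjusted p = 0.329), did not pass.

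Among the angiogenic genes, Esm1, a secreted proteoglycan of tip cells, had 6.72, 6.10 and 5.86 in wild type bleomycin lungs, against 7.24, 7.19 and 7.38 in wild type saline lungs. The change was -1.04 (adjusted p = 0.000828), a signal that fell by 51.5%. Apln, the peptide apelin, which in mouse lung is made by the gas-exchange capillary cell, had 7.90, 8.15 and 8.02 after bleomycin, against 8.61, 8.39 and 8.53 after saline (change -0.49, adjusted p = 0.00464). Neither gene overlapped between the groups. Its receptor Aplnr, which marks the general capillary cell, changed by 0.28 (adjusted p = 0.232). Plvap, a protein of fenestral diaphragms, fell by 0.43 (adjusted p = 0.0385). The growth factors did not pass. Vegfa had 9.92, 10.37 and 10.43 in wild type bleomycin lungs, against 10.74, 10.33 and 10.87 in wild type saline lungs (change -0.41, adjusted p = 0.0701). Angpt1, which activates Tek, changed by -0.30 (adjusted p = 0.0841), and Angpt2, which can oppose it, by -0.07 (adjusted p = 0.647).

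The arterial and venous genes included 3 that rose. Selp, the P-selectin that endothelial cells and platelets store and release on activation, had 8.56, 6.96 and 7.11 in wild type bleomycin lungs, against 6.09, 5.81 and 6.17 in wild type saline lungs. The change of 1.52 ± 0.30 (SE, n = 3 per group; adjusted p = 0.00228) was 2.86-fold. All bleomycin arrays were above the saline arrays, and the first stood above the rest: without wild type bleomycin replicate 1 the change was 1.01 (adjusted p = 0.0001). Platelets carry P-selectin too, and of 6 platelet genes 4 fell in the same lungs, beside 14.4% of all genes. Pf4, a platelet chemokine, had a change of 0.48 (adjusted p = 0.128). All 6 platelet genes were highest of their group on wild type bleomycin replicate 1, as Selp was. Pf4 was at 9.72 there, against 8.70 and 8.67 on the others. The summed linear signal of the list was 772 to 1336 in wild type bleomycin lungs and 1070 to 1341 in wild type saline lungs, which overlapped, and the part of platelet RNA in the Selp result was not tested. Gja4, an arterial connexin, had 10.40, 10.19 and 10.46 after bleomycin, against 9.49, 9.74 and 9.55 after saline, a change of 0.76 (adjusted p = 0.000826) or 1.69-fold, with no overlap. Gja5, another arterial connexin, had 4.65, 4.04 and 4.81 after bleomycin, against 3.96, 3.74 and 3.93 after saline (change 0.62, adjusted p = 0.0232), but it lay between the 12.2 and 29.9 percentiles, near background. The remaining arterial genes did not pass. Sox17, an arterial SOX factor, changed by 0.14, Nos3, the endothelial nitric oxide synthase, by 0.30 (adjusted p = 0.105), and Edn1, the vasoconstrictor endothelin that Ednrb binds, by 0.07. Vwf, the clotting protein stored with P-selectin, had 12.004, 11.43 and 11.33 in wild type bleomycin lungs, against 11.56, 11.70 and 11.66 in wild type saline lungs, which overlapped (change -0.05, 95% interval -0.39 to 0.29). Sele, the E-selectin of inflamed endothelium, was near background in all groups, between the 8.99 and 22.2 percentiles.

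**Figure D2:**
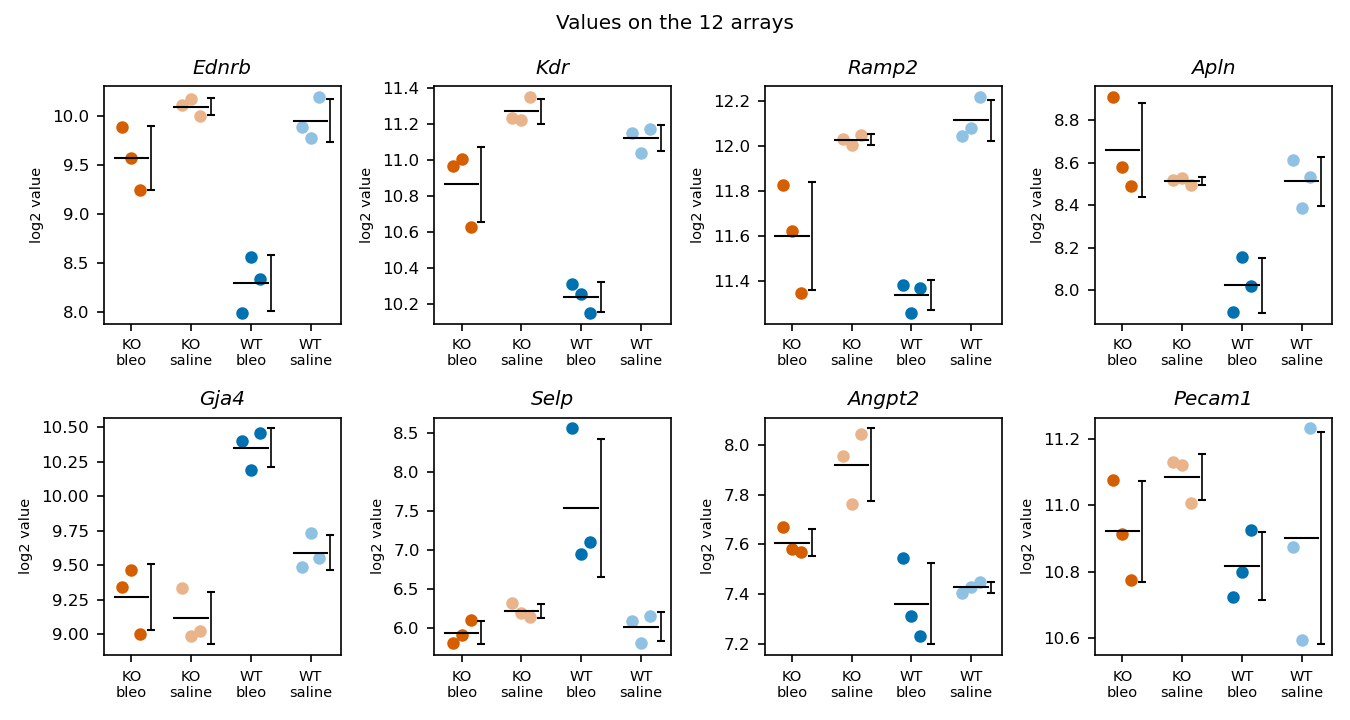
Log2 signal of 8 genes on the 12 arrays, 3 per group, with the group mean (horizontal line) and SD (bar); each panel has its own axis. Wild type bleomycin arrays lie apart from the other 3 groups in Ednrb, Kdr, Apln, Gja4 and Selp, with Ednrb at 7.99 to 8.56 there, while Pecam1 overlaps between bleomycin and saline lungs of each genotype.

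Some wild type calls were lost with single arrays left out, which leaves fewer arrays, or with probe sets averaged. The change was not always smaller where a call was lost. For Plvap it was -0.43 with all arrays, -0.48 without wild type saline replicate 1 and -0.29 without wild type bleomycin replicate 2. Plvap missed the threshold in 5 of the 6 fits that left out a wild type array, with the highest adjusted p (0.156) without wild type bleomycin replicate 2. Fli1 missed it without wild type saline replicate 1 or 2 or bleomycin replicate 3 (up to 0.0945), Gja5 without wild type saline replicate 2 or bleomycin replicate 1 or 3 (up to 0.101), Cdh5 without wild type saline replicate 1 or 3 or bleomycin replicate 1 (up to 0.12), and Egfl7 without wild type bleomycin replicate 3 (0.0501). For 20 of the 41 genes the array carries more than 1 probe set, and in 6 of these the probe sets differed in sign. With the mean of all probe sets, Flt1 changed by -0.09 (adjusted p = 0.581) and Cdh5 by 0.11 (adjusted p = 0.758). The other probe sets of Ednrb changed by -1.49 and -0.94, and those of Selp by 1.06 and 1.04. Among genes that did not pass, the other probe sets of Nrp1 changed by -0.40, -0.39 and -0.29, and that of Sox17 by 0.58. Those of Calcrl changed by 0.71, opposite to its brightest probe set, and by -0.27 at a mean log2 value of 4.085. Both Nrp1 and Sox17 passed in 1 of 15 alternative fits.

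RefSeq promoter windows of 300 bases on GRCm38.p6 were matched by symbol for 24 of the 41 genes, as 30 windows. They are shown for Tek, Car4 and Edn1, which hold a searched motif, and for Ednrb and Selp, whose response to bleomycin differed most between the genotypes, as given below. Each is written 5′ to 3′ on the gene's strand, with any motif in capitals, which mark a GATA motif in Tek and Edn1 and an ETS motif in Car4.
Tek chr4:94739039-94739338 +: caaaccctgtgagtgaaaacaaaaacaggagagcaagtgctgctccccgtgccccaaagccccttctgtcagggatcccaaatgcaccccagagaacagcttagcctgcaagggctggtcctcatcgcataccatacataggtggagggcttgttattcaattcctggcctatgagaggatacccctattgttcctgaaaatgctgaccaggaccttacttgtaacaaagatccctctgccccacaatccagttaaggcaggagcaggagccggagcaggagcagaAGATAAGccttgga
Car4 chr11:84957504-84957803 +: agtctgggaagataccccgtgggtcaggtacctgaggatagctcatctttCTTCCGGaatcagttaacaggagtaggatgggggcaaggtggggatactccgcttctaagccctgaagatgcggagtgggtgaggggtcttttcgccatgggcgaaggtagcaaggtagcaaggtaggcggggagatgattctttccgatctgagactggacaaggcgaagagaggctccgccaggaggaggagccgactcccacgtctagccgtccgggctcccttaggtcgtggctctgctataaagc
Edn1 chr13:42301226-42301525 +: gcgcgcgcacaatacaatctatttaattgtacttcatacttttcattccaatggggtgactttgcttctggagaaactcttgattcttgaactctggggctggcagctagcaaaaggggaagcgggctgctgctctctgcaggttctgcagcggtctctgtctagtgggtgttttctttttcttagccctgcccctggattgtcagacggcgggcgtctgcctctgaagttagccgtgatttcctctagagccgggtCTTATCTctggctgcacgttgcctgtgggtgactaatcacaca
Ednrb chr14:103843652-103843951 -: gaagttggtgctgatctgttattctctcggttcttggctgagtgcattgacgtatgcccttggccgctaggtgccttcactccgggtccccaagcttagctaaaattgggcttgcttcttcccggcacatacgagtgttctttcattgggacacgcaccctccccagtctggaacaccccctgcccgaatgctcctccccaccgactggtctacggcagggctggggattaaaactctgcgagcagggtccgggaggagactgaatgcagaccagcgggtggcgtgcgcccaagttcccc
Selp chr1:164115014-164115313 +: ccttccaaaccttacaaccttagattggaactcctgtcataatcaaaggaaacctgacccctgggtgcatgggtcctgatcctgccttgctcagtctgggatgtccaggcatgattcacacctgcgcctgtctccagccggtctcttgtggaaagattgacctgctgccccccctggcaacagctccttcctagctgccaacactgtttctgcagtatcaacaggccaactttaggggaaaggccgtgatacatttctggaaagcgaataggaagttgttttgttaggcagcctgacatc
The motifs searched on both strands were CCGGAAG for ETS factors, ACAATG for SOX factors and AGATAAG for GATA factors. The GATA letters begin at base 287 of the Tek window and, on the opposite strand, at base 258 of the Edn1 window, and the ETS letters on the opposite strand at base 51 of the Car4 window. The ETS motif was in 1 of the 30 windows and in 8.86% of all 32851 promoter windows, the SOX motif in 2 (Calcrl and Erg) and 12.6%, and the GATA motif in 3 (Edn1, Erg and Tek) and 3.04%. The windows of Ednrb and Selp hold none of these letters, and a match is a description of the sequence only.

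In knockout lungs fewer of the genes passed. The median log2 change of the 41 genes was -0.18, against 0.01 over all genes tested. Of the 41 changes 33 were negative, whereas 54.0% of all genes had a positive change. Class medians were -0.39 for receptors, -0.28 for angiogenic, -0.24 for capillary and -0.22 for venous genes. They were -0.21 for transcription factors, -0.11 for surface and junction genes and 0.01 for arterial genes. Kdr, Tek and Ramp2 fell, and no gene rose, at an adjusted p under 0.05 in limma, in which 3.26% of all genes were called, 1.98% higher and 1.29% lower. At an unadjusted p under 0.05, 12 of the 41 genes were lower and 0 higher, while 3267 of all 18194 genes differed in either direction. Kdr had 10.96, 11.004 and 10.62 in knockout bleomycin lungs, against 11.23, 11.22 and 11.35 in knockout saline lungs (change -0.40 ± 0.10, SE, n = 3 per group; adjusted p = 0.0467). Tek had 11.10, 10.95 and 10.71 after bleomycin, against 11.35, 11.31 and 11.29 after saline (change -0.39, adjusted p = 0.0482). Ramp2 had 11.82, 11.62 and 11.35 after bleomycin, against 12.03, 12.001 and 12.05 after saline (change -0.43, adjusted p = 0.0446). In all of these the bleomycin arrays lay below the saline arrays. Each of the calls was lost in 9 of 15 alternative fits, among them those without any single knockout saline array or without knockout bleomycin replicate 2 or 3, in which the adjusted p reached 0.155 for Kdr, 0.166 for Tek and 0.141 for Ramp2.

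Genes that fell in wild type lungs mostly had a negative change in the knockout too. Of the 16 genes, 15 did (93.8%), against 80.8% of the 2617 genes that fell in wild type over the whole array. Apln was the exception, with 0.15 in knockout lungs. Over the 16 genes the median change was -0.36 in the knockout and -0.68 in wild type, and over all 2617 genes it was -0.15 in the knockout and -0.47 in wild type. Of the 4 genes that rose in wild type, only Gja4 had a positive change in the knockout, whereas 88.2% of the 2428 genes that rose in wild type did. These responses come from separate arrays. The sets were picked by their calls in wild type, which favours larger changes in wild type than in the knockout. Over all 41 genes, the median change was -0.18 in the knockout and -0.28 in wild type.

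The knockout bleomycin arrays were spread in one order. Among the 16 genes that fell in wild type lungs, replicate 3 was the lowest of the knockout bleomycin arrays in 16 and replicate 1 the highest in 14. Over all genes that fell in wild type, replicate 3 was lowest in 42.6% and replicate 1 highest in 58.5%. Heart muscle genes ran the other way on these arrays, with Myh6, a cardiac myosin heavy chain, at 7.92, 9.24 and 10.35. Acvrl1 had 10.58, 9.99 and 9.85 in knockout bleomycin lungs, against 10.60, 10.64 and 10.57 in knockout saline lungs, so its groups overlapped through replicate 1 (change -0.47, adjusted p = 0.136). Ednrb had 9.90, 9.58 and 9.24 after bleomycin, against 10.11, 10.18 and 10.01 after saline, without overlap (change -0.53, adjusted p = 0.117). Esm1 had 7.28, 6.96 and 6.86 after bleomycin, against 7.69, 7.39 and 7.48 after saline, also without overlap (change -0.48, adjusted p = 0.171).

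**Figure D3:**
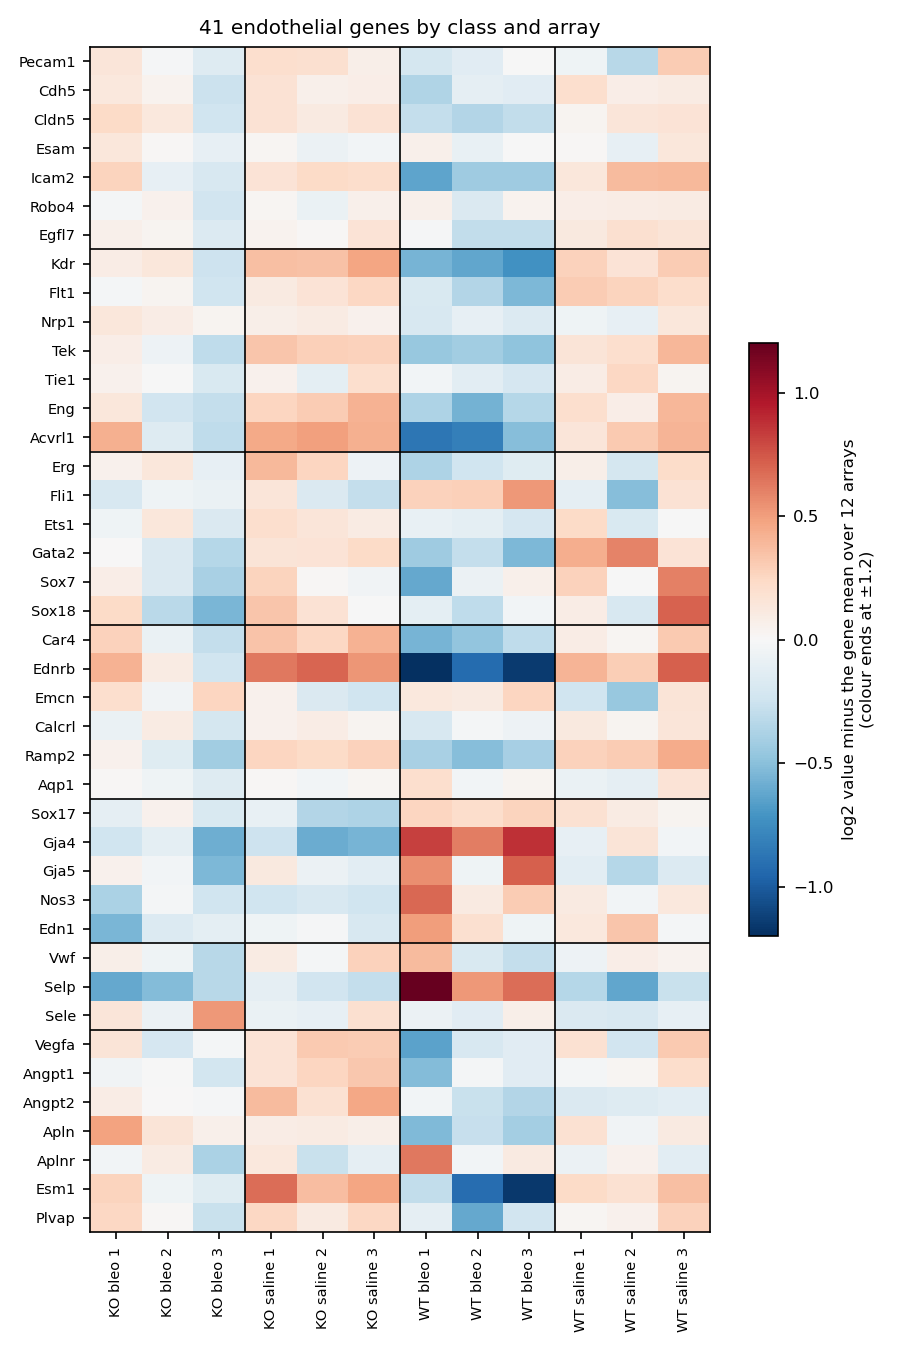
Log2 signal of the 41 genes (grouped by class, lines between classes) on each of the 12 arrays, as the difference from the gene's mean over the arrays; red is higher, blue is lower and the colour ends at ±1.2. The 3 wild type bleomycin columns are blue for most receptor and capillary genes and red for Gja4 and Selp, and the third knockout bleomycin column is bluer than the first.

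The response to bleomycin itself differed between genotypes for Ednrb, Selp and Apln. This test, knockout response minus wild type response, called 5.02% of all genes, 2.03% higher and 3% lower. The median difference over the 41 genes was 0.11, against 0.04 over all genes. For Ednrb the response was -0.53 in knockout lungs and -1.66 in wild type lungs, a difference of 1.13 ± 0.24 (SE; 95% interval 0.61 to 1.65; adjusted p = 0.0207). For Selp it was -0.28 in knockout and 1.52 in wild type lungs, a difference of -1.80 ± 0.43 (adjusted p = 0.0329). For Apln it was 0.15 in knockout and -0.49 in wild type lungs, a difference of 0.64 ± 0.15 (adjusted p = 0.0354). Selp had 5.82, 5.91 and 6.11 in knockout bleomycin lungs, against 6.33, 6.20 and 6.15 in knockout saline lungs, while Apln had 8.91, 8.58 and 8.49 in knockout bleomycin lungs, against 8.52, 8.53 and 8.49 in knockout saline lungs. Every knockout bleomycin array of Selp was thus below the knockout saline arrays, and those of Apln overlapped them.

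None of these differences passed in every alternative. That of Ednrb missed the threshold without knockout saline replicate 1 (adjusted p = 0.0506) or 3 (0.0509), and with the mean of its probe sets (0.86, adjusted p = 0.226). That of Selp missed it without any one of the wild type saline or knockout saline arrays or without knockout bleomycin replicate 1 or 2 (adjusted p up to 0.0815), and with the mean of its probe sets (-1.38, adjusted p = 0.0753). Without wild type bleomycin replicate 1, the array highest for Selp, the difference was -1.29 (adjusted p = 0.00269). That of Apln missed it without wild type saline replicate 1 or 3, wild type bleomycin replicate 1 or 3, any one knockout saline array or knockout bleomycin replicate 1 (up to 0.0802). Icam2 (0.59, adjusted p = 0.0577), Kdr (0.48, adjusted p = 0.0698) and Gja4 (-0.61, adjusted p = 0.0774) came next and did not pass.

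**Figure D4:**
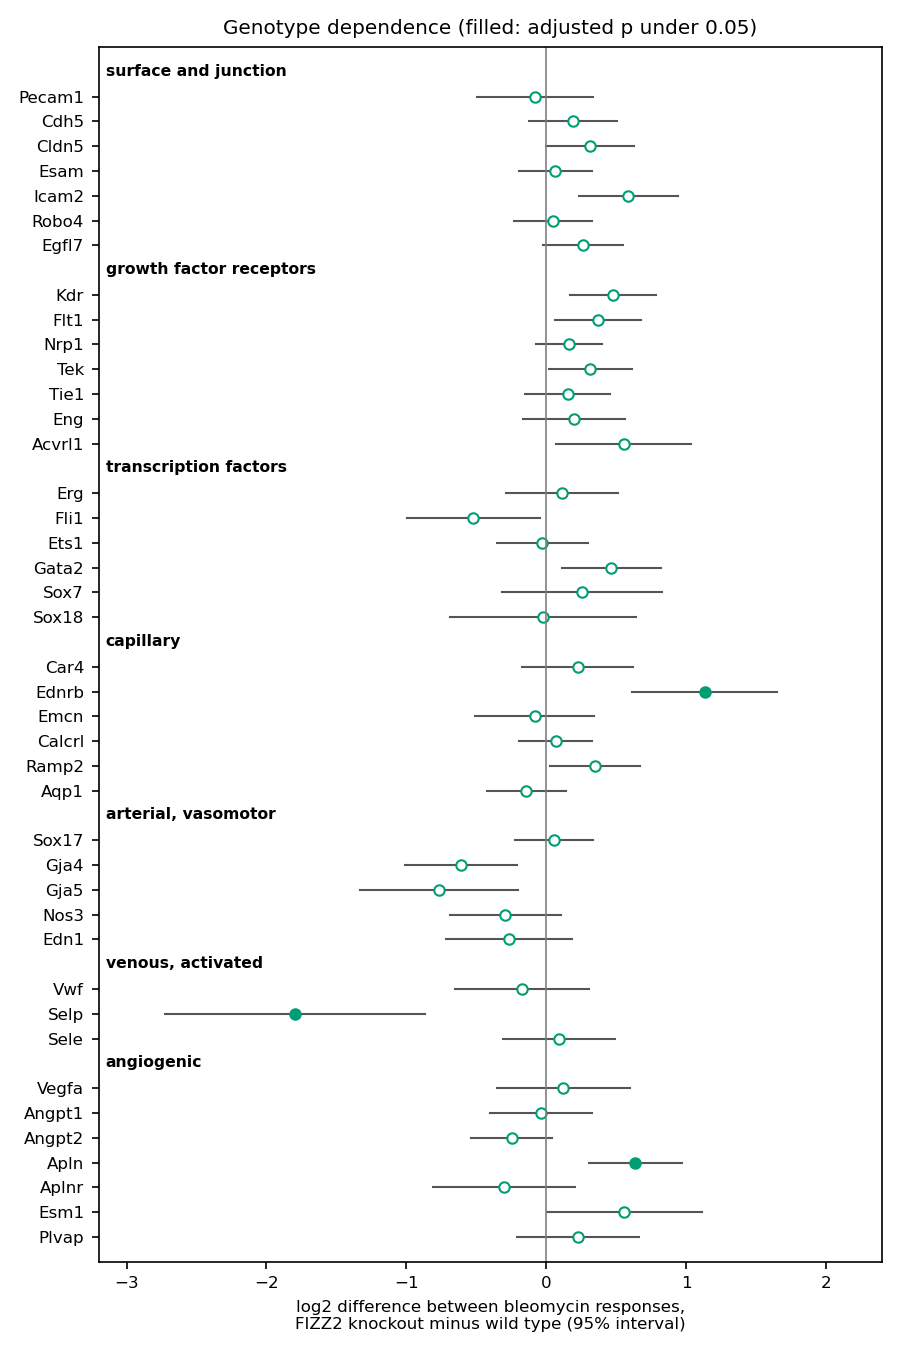
Difference between the bleomycin responses (knockout minus wild type, log2) of each of the 41 genes with its 95% interval from the limma fit; filled points have an adjusted p under 0.05. The filled points are Ednrb (1.13) and Apln (0.64), with a higher response in the knockout, and Selp (-1.80), with a lower one.

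After saline 1 of the 41 genes differed between genotypes. This was Angpt2, in a comparison that called 0.489% of all genes, 0.297% higher and 0.192% lower. It had 7.96, 7.76 and 8.05 in knockout saline lungs, against 7.41, 7.43 and 7.45 in wild type saline lungs, a difference of 0.49 ± 0.09 (SE, n = 3 per group; adjusted p = 0.042). All knockout arrays were higher. The call was lost without any one wild type saline array or without knockout saline replicate 1 or 3 (adjusted p up to 0.191), and with the mean of its probe sets the difference was 0.18. Gja4 had 9.33, 8.99 and 9.02 in knockout saline lungs, against 9.49, 9.74 and 9.55 in wild type saline lungs, which did not overlap but did not pass (difference -0.48, adjusted p = 0.184). Sox17 (-0.38, adjusted p = 0.126) and Nos3 (-0.29, adjusted p = 0.482) were also lower on every knockout saline array without passing.

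After bleomycin 14 of the 41 genes differed between genotypes, in a comparison that called 15.4% of all genes, 7.52% higher and 7.89% lower in the knockout. Knockout lungs had more RNA of 9 genes, namely Ednrb, Car4, Kdr, Tek, Acvrl1, Icam2, Cldn5, Apln and Esm1. They had less of 5 genes, namely Gja4, Sox17, Nos3, Edn1 and Selp. The higher genes thus came from the capillary, receptor, surface and angiogenic classes, and the lower ones were 4 of the 5 arterial and vasomotor genes and 1 venous gene. These arterial and vasomotor genes also had lower means in knockout lungs after saline, without passing. The differences there were -0.48 for Gja4, -0.38 for Sox17, -0.29 for Nos3 and -0.23 for Edn1. For none of them was the difference between the bleomycin responses called. The comparison after bleomycin shares its arrays with the responses above. The median difference over the 41 genes was 0.17, against 0.03 over all genes.

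Among the higher genes, Ednrb differed by 1.28 ± 0.17 (SE, n = 3 per group; adjusted p = 0.00042), Esm1 by 0.81 (adjusted p = 0.00908), Acvrl1 by 0.72 (adjusted p = 0.00849), Apln by 0.64 (adjusted p = 0.00198) and Kdr by 0.63 (adjusted p = 0.00126). For each of these the lowest knockout bleomycin array was above the highest wild type bleomycin array. Icam2 (0.49), Car4 (0.42), Tek (0.36) and Cldn5 (0.35) were called with adjusted p between 0.0132 and 0.0467. All of the last 4 were lost without knockout bleomycin replicate 1, the highest of its group for these genes, at an adjusted p of 0.185 for Car4, 0.111 for Tek, 0.159 for Cldn5 and 0.0528 for Icam2. All 4 were also lost without wild type bleomycin replicate 1. Car4, Tek and Cldn5 were lost without knockout bleomycin replicate 2, Car4 and Cldn5 without wild type bleomycin replicate 2, and Tek and Cldn5 without wild type bleomycin replicate 3.

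Among the lower genes, Gja4 had 9.34, 9.46 and 8.999 in knockout bleomycin lungs, against 10.40, 10.19 and 10.46 in wild type bleomycin lungs, a difference of -1.08 ± 0.13 (SE; adjusted p = 0.000216). Nos3 had 7.43, 7.78 and 7.57 in knockout bleomycin lungs, against 8.50, 7.92 and 8.12 in wild type bleomycin lungs (difference -0.58, adjusted p = 0.00915). Neither overlapped between the genotypes. Edn1 had 8.30, 8.68 and 8.72 in the knockout, against 9.35, 9.04 and 8.79 in wild type (difference -0.49, adjusted p = 0.0386). Sox17 had 9.90, 10.06 and 9.83 in the knockout, against 10.26, 10.21 and 10.27 in wild type (difference -0.32, adjusted p = 0.0314). Selp differed by -1.60 (adjusted p = 0.00372), and by -1.09 without wild type bleomycin replicate 1. Gja4, Nos3 and Selp passed without any one array, but Edn1 was lost without replicate 1 or 2 of either bleomycin group (adjusted p up to 0.163) and Sox17 without any one wild type bleomycin array or knockout bleomycin replicate 1 or 3 (up to 0.105).

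Genes of the VEGF, Notch and bone morphogenetic protein pathways that are not among the 41 were read the same way. Of 27 measured, 13 fell and 2 rose in wild type lungs, with a median change of -0.15, against -0.04 over all genes. In that comparison 14.4% of all genes were called lower and 13.3% higher. Bmp6, a ligand of the endothelial bone morphogenetic protein receptors, had 8.66, 8.86 and 8.80 in wild type bleomycin lungs, against 10.15, 10.01 and 10.24 in wild type saline lungs (change -1.36, adjusted p = 5.63e-06). Smad6, an inhibitor that this pathway induces, had 9.35, 9.21 and 9.10 after bleomycin, against 10.51, 10.25 and 11.25 after saline (change -1.45, adjusted p = 0.000359). Both were lower on every bleomycin array. Id1 and Id3, which this pathway also induces, had wild type means of 10.38 and 10.66 after bleomycin, against 10.40 and 10.61 after saline. Pgf, a ligand of Flt1, rose by 1.21 (adjusted p = 0.000246), and Nrp2, a co-receptor for VEGF family ligands, by 0.76 (adjusted p = 0.000249). Pgf was 8.19 in wild type bleomycin replicate 1, the array with the most Selp, and 7.51 and 7.41 in the others. In knockout lungs 1 of the 27 fell, Smad7 (-0.47, adjusted p = 0.0361), which was named after its value was seen. There 1.29% of all genes were called lower. At an unadjusted p under 0.05, 8 of the 27 were lower and 0 higher, while 3267 of all 18194 genes differed in either direction.

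Of 18 other endothelial genes measured, 5 fell and 4 rose in wild type lungs, beside 14.4% and 13.3% of all genes. The median was -0.14. Those that rose included Ackr1, a chemokine receptor of venules, Procr, the endothelial receptor of protein C, and Cd34, a sialomucin of vessels and some stromal cells. Ackr1 had 8.83, 7.37 and 7.54 in wild type bleomycin lungs, against 5.98, 6.13 and 5.95 in wild type saline lungs (change 1.89, adjusted p = 0.000278). Procr rose by 1.38 (adjusted p = 1.91e-05) and Cd34 by 0.93 (adjusted p = 3.65e-05). Clec14a, an endothelial lectin, fell by 0.81 on the log2 scale (adjusted p = 0.000725). As for Selp, wild type bleomycin replicate 1 was the highest array for Ackr1. In the knockout, Procr rose by 0.63 (adjusted p = 0.0325), and Ackr1 had 6.03, 6.54 and 6.25 after bleomycin, against 5.85, 5.93 and 5.73 after saline (change 0.44, adjusted p = 0.452).

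Genes of cells next to the endothelium were read as well. Of all genes, 13.3% rose and 14.4% fell in wild type lungs. Of 10 genes listed for pericytes, the cells that wrap capillaries, 5 rose in wild type lungs, with a median of 0.45. The list includes Postn, Pdgfrb and Des, which are not restricted to pericytes. Postn (mean log2 11.72) and Pdgfrb (11.32) had its highest signals in wild type bleomycin lungs and weigh most in the sum of the list. The summed linear signal of the 10 genes was 5736 to 6952 in knockout bleomycin, 6083 to 6178 in knockout saline, 8558 to 11568 in wild type bleomycin and 6453 to 6750 in wild type saline lungs. Rgs5, a pericyte regulator of G protein signalling, had 10.65, 10.55 and 9.78 in wild type bleomycin lungs, against 8.10, 7.37 and 7.95 in wild type saline lungs (change 2.52, adjusted p = 1.96e-05). Of 5 lymphatic genes measured, 3 rose and 1 fell in wild type lungs, with summed signals of 3312 to 3661, 3564 to 3805, 3995 to 4448 and 4035 to 4397 in the same order of groups. One of the 3 was Pdpn (0.34, adjusted p = 0.0229), which alveolar type 1 cells also carry. The gene that fell was Lyve1, with wild type means of 10.73 after bleomycin and 11.22 after saline (change -0.49), named after its value was seen. Lyve1 and Pdpn had the highest signals of the list in every group and weigh most in its sum. Mmrn1, a protein of lymphatic vessels and platelets, rose by 1.18 (adjusted p = 0.000321), while Prox1, the defining lymphatic factor, was near background in every group. In the knockout no pericyte or lymphatic gene was called by limma. At an unadjusted p under 0.05, 0 of 10 pericyte genes and 1 of 5 lymphatic genes (lower) differed, beside 3267 of all 18194 genes.

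**Figure D5:**
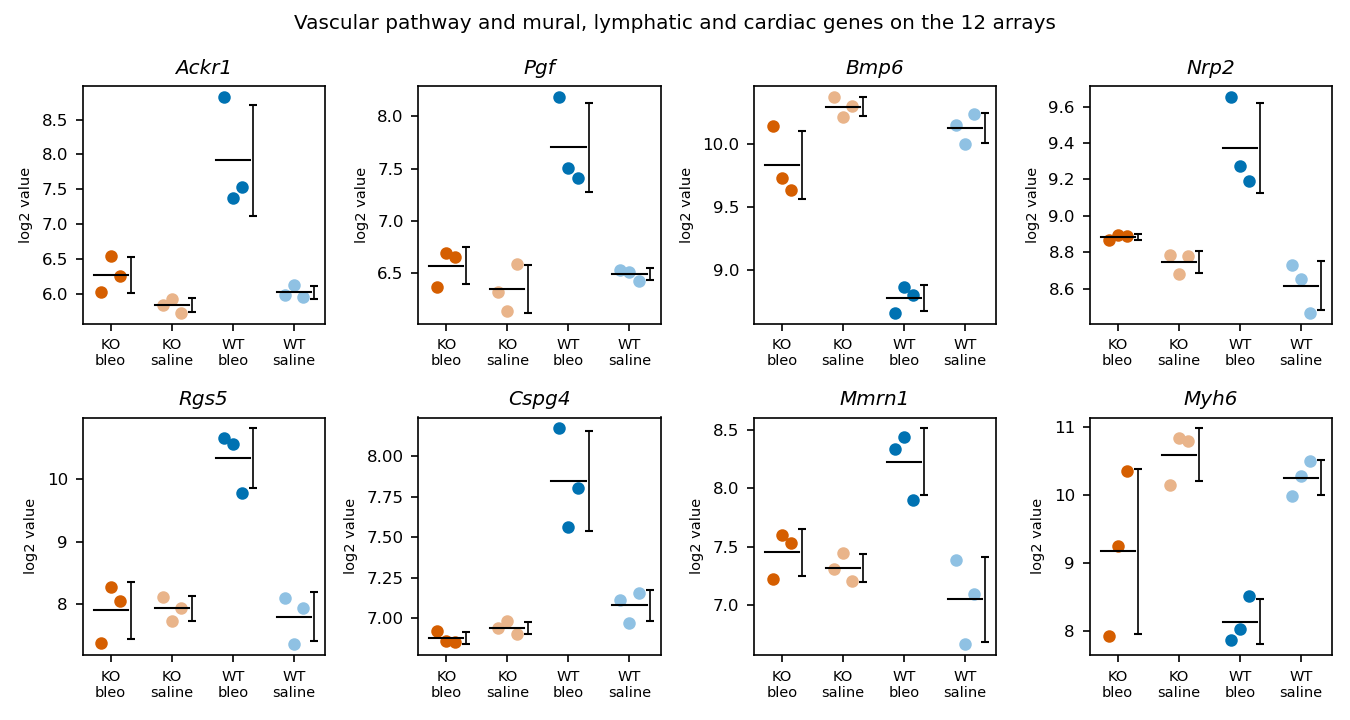
Log2 signal on the 12 arrays of genes outside the list of 41: Ackr1, Pgf, Bmp6 and Nrp2 (vascular), Rgs5 and Cspg4 (pericyte), Mmrn1 (lymphatic) and Myh6 (heart muscle), with group mean (line) and SD (bar), 3 arrays per group, each panel with its own axis. Wild type bleomycin arrays stand apart in all but Myh6, which is spread from 7.92 to 10.35 among the knockout bleomycin arrays.

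Markers of other tissues also changed with the groups, and their part in the endothelial results was not tested. Over all genes, 14.4% fell and 13.3% rose in wild type lungs, and 1.29% fell in knockout lungs. All 8 heart muscle genes fell in wild type lungs, with a median of -2.00. Their summed linear signal was 2209 to 9282 in knockout bleomycin, 7640 to 12355 in knockout saline, 2052 to 3038 in wild type bleomycin and 7359 to 10699 in wild type saline lungs. In the knockout none of the 8 passed in limma, although 8 were lower at an unadjusted p under 0.05, beside 3267 of all 18194 genes in either direction. Of 12 leukocyte genes, 3 rose and 6 fell in wild type lungs, with summed signals of 25230 to 26246, 27389 to 31441, 21159 to 22893 and 22644 to 24499 in the same order of groups. Of 6 platelet genes, 4 fell in wild type and 2 in knockout lungs, and the sums in the knockout were 895 to 1293 after bleomycin, against 1392 to 1732 after saline. Of 7 alveolar type 1 genes, 2 fell and 1, again Pdpn, rose in wild type, of 6 other epithelial genes 2 fell, and of 6 mesothelial genes 1 rose. No list had a defining marker at 0, since every probe set has a value, and the lowest group mean among the heart genes was 5.60.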

How the data were processed

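Total RNA of whole lung was hybridized to 12 Affymetrix arrays. The authors deposited log2 values, which the submitters' processing notes describe only by the names affy, RMA and limma, without versions. RMA subtracts background, makes the array distributions equal and summarises probes, so a change in total RNA cannot be seen and low signals are compressed. Detection calls were not used here. For arrays, their number limits the precision.

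Of 45101 probe sets, 34958 were paired with 1 gene, 932 with several and 9211 with none in the platform annotation. Symbols were updated by Entrez identifier for 34754 of them with a RefSeq table. Where several probe sets shared a gene, the brightest on average over all arrays was kept, which left 18194 genes. All arrays entered 1 limma fit (limma 3.58.1, R 4.3.3) with a mean per group, no block, and eBayes (4.86 prior and 8 residual degrees of freedom). It gave 5 contrasts, namely the bleomycin response of knockout and of wild type lungs, their difference, and the genotypes compared within each treatment. The threshold for a call was an adjusted p under 0.05 (Benjamini-Hochberg, all genes tested). The procedure was tested on simulated data.

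The 41 genes and the other lists were chosen with earlier results of these data known. All 41 are named. Values on every array are given for called genes, at most the 4 with the smallest p per class, and for textbook markers. From other lists, at most the 4 with the smallest p in wild type are given, apart from some genes added after their values were seen. Summed linear signals add 2 to the power of each log2 value over a list. Alternatives tried were a minimum mean log2 value of 5, array medians subtracted, quantile normalization repeated, a robust eBayes with trend, probe sets averaged per gene, only the groups compared, array weights, changes of at least 1.5-fold, a block for replicate number, and each array left out. Plots used matplotlib 3.10.9 (Python 3.11.15).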

Additional observations from a re-analysis of the deposited data

Results flagged for a closer look

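The response to bleomycin differed between knockout and wild type lungs, by the interaction term of the limma fit, for 3 of the 41 endothelial genes. The difference, knockout minus wild type on the log2 scale, was 1.13 for Ednrb, -1.80 for Selp and 0.64 for Apln. Leaving out single arrays ended the calls of all 3, as given with the results.

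Among the genes of the other lists with array values in the text or the plots, the same term passed for 6. It called 5.02% of all genes. In the pathway genes the difference was -0.99 for Pgf (adjusted p = 0.0408), -0.62 for Nrp2 (adjusted p = 0.0404) and 0.90 for Bmp6 (adjusted p = 0.0122). For Mmrn1, of lymphatic vessels, it was -1.05 (adjusted p = 0.034). For the pericyte genes it was -0.83 for Cspg4 (adjusted p = 0.018) and -2.55 for Rgs5 (adjusted p = 0.0041). Rgs5 had 7.39, 8.28 and 8.05 in knockout bleomycin lungs, against 8.13, 7.73 and 7.95 in knockout saline lungs, which overlapped. Cspg4, a surface proteoglycan of pericytes, had 6.92, 6.86 and 6.85 in knockout bleomycin lungs, against 6.94, 6.98 and 6.91 in knockout saline lungs, and 8.17, 7.56 and 7.80 in wild type bleomycin lungs, against 7.11, 6.97 and 7.15 in wild type saline lungs.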

How the results depend on the processing

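With 3 arrays per group, the number of the 41 genes called after bleomycin in wild type lungs was 20 and stayed within 1.5 times in every alternative, between 14 (1.5-fold minimum) and 26 (array weights). In knockout lungs the count was 3. It was 0 with array medians subtracted, with only the groups compared, with the 1.5-fold minimum and with the replicate number as a block, 7 with array weights, and 0 to 7 with single arrays left out. In the alternatives with 0 calls in limma, 8 to 15 genes had an unadjusted p under 0.05. Without an alternative, 3267 of all 18194 genes had such a p for the knockout response and 7010 for the wild type response. The number was 3964 for the difference between responses and 1846 for the genotypes after saline. For the difference between responses the count was 3, against 1 with the mean of all probe sets, 8 with array weights and 0 to 7 with single arrays left out. The counts of 0 came without knockout saline replicate 1 or 3, with 10 genes each at an unadjusted p under 0.05. For knockout against wild type after saline the count was 1, against 0 with medians subtracted, the mean of all probe sets, only the groups compared, the 1.5-fold minimum and the replicate block, 4 with array weights and 0 to 1 with single arrays left out, where 3 to 5 genes had an unadjusted p under 0.05. For knockout against wild type after bleomycin it was 14, against 7 with the 1.5-fold minimum and 8 to 15 with single arrays left out. The share of all genes called under each alternative is not given here. The counts therefore do not separate a shift of the 41 genes from a shift over all genes. Among called genes, Cdh5 turned its direction, to 0.11 in wild type with the mean of its probe sets (adjusted p = 0.758). The cause of these changes was not tested, and some alternatives also use fewer arrays or a higher minimum.

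Replicate numbers are shared by the groups but did not pair the arrays. Of 18 same-numbered pairs, 2 had a correlation of deviations over 0.1 (-0.30 to 0.20), against 9 of 36 other pairs (-0.23 to 0.36). With the replicate block the counts were 20 in wild type, 0 in knockout, 2 for the difference, 0 after saline and 12 after bleomycin. Of 3270 values of single genes under all alternatives, 3087 kept their side of the threshold, 124 lost and 58 gained a call, and 1 called value reversed. The 3087 include 99 values, called neither before nor after, that changed sign. Fits on only the groups compared do not apply to the difference between responses.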

Other observations

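Smooth muscle genes mark the muscular coat of vessels and airways. Of 6 measured, none was called in wild type lungs by limma. At an unadjusted p under 0.05, 2 were higher and 0 lower, beside 7010 of all 18194 genes in either direction. In knockout lungs 2 fell, beside 1.29% of all genes. They were Myh11 (-0.87, adjusted p = 0.0426) and Lmod1 (-0.65, adjusted p = 0.0159), which were named after their values were seen. After bleomycin, 3 of the 6 were lower in knockout than in wild type lungs, beside 7.89% of all genes. Acta2, smooth muscle actin, had 11.30, 11.49 and 11.48 in knockout bleomycin lungs, against 12.78, 12.12 and 12.08 in wild type bleomycin lungs (difference -0.91, adjusted p = 0.00585), and the arrays did not overlap. The summed linear signal of the list was 4975 to 6023 in knockout bleomycin, 7053 to 10672 in knockout saline, 8496 to 13667 in wild type bleomycin and 7330 to 9716 in wild type saline lungs. The difference between the responses was not called for any of the 6. At an unadjusted p under 0.05, 5 were lower and 0 higher, beside 3964 of all 18194 genes in either direction.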
